A study of Brassica napus with 18 samples.

Results

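Chromosomes A04 and C04 of oilseed rape (Brassica napus) were described from the shoot apex transcriptomes of 6 field-grown accessions. Haplotype 1 of BnaC3.LFY is that of accessions R5044, R5159 and R5161. Haplotype 2 is that of R4168, R4210 and R4817. Each accession has 3 poly(A)-selected libraries, and no treatment, age or sampling date is given in the labels. LEAFY, of which BnaC3.LFY is a copy, is known to direct meristems to form flowers, and by its name this copy lies on neither of the 2 chromosomes. The members are all gene models whose identifier begins with BnaA04T or BnaC04T, which gave 9764 of the 107233 gene models in the table, 3200 on A04 and 6564 on C04. A position is the running gene number in the identifier, from 1 to 3014 on A04 and from 1 to 6183 on C04, and not a base-pair coordinate. Gene models that share a number and carry a dot suffix, 186 on A04 and 381 on C04, were kept.

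Oilseed rape is an allotetraploid that holds the chromosomes of the Brassica rapa lineage, named A, beside those of the Brassica oleracea lineage, named C. Most genes therefore have a counterpart, or homoeologue, in the other subgenome, and A04 and C04 are homoeologous over much of their length, while C04 also shares collinear stretches with A05. Pairing between homoeologous chromosomes at meiosis is known in this species and can replace or delete a stretch of one subgenome. The files hold RNA counts only. They do not pair A genes with C genes and name no gene, so no function is given to any member and the labelled tissue could not be checked against marker genes. Counts of similar A and C copies may share reads, since the treatment of reads with several alignments is not given in the sources used here.

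The total count of a library, averaged over the accessions, was 33372714.8 ± 3619287.1 for haplotype 1, against 26368782.7 ± 3318506.4 for haplotype 2 (SD, n = 3 accessions each). Single libraries held between 21960992 and 41459636. At least 1 count was found for 2408 gene models of A04 and 4692 of C04. Nothing in the labels shows that libraries of 1 accession stem from separate plants, so p-values based on them may measure technical spread only.

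Both chromosomes made up nearly the same share of the transcriptome in all accessions. Levels are in CPM, counts scaled so that each library has the same total. The sum over A04 was 32779.6 ± 707.8 CPM in haplotype 1, against 31451.2 ± 516.3 CPM in haplotype 2 (SD, n = 3 accessions each, two-sided exact permutation p = 0.1, the smallest p that 3 against 3 allows). The sum over C04 was 61678.1 ± 1434 CPM in haplotype 1, against 59614.8 ± 741 CPM in haplotype 2 (SD, n = 3 each, exact permutation p = 0.2). The difference was 4.22% of the haplotype 2 level for A04 and 3.46% for C04. As log2 differences these were 0.06 and 0.049, and without the 10 most abundant genes of each chromosome they were 0.06 on A04 (exact permutation p = 0.1) and 0.013 on C04 (exact permutation p = 0.6). The A04 sums of the accessions did not overlap between the haplotypes, while those of C04 did. Conversely, fewer genes reached 1 CPM in haplotype 1, with 1265 ± 13.7 against 1336 ± 26.2 genes on A04 and 2394 ± 72.2 against 2529 ± 29.8 on C04 (SD, n = 3 accessions each, exact permutation p = 0.1 for either chromosome). The difference in gene numbers was -5.33% of the haplotype 2 number on either chromosome. Libraries of haplotype 1 were deeper on average, and the part of depth in these gene numbers was not tested. Neither these numbers nor the sums are given here for other chromosomes, so no difference is shown to be particular to A04 or C04.

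The A to C balance over all genes overlapped between the haplotypes. A04 held 34.1%, 34.3% and 35.7% of the summed A04 and C04 counts in R5044, R5159 and R5161, against 34.2%, 34.5% and 34.9% in R4168, R4210 and R4817. The highest value was that of R5161 and the lowest that of R5044, both of haplotype 1, and the groups overlapped. The haplotype means were 34.7 ± 0.871% in haplotype 1 and 34.5 ± 0.355% in haplotype 2, a difference of 0.167 percentage points (SD, n = 3 each, exact permutation p = 0.9). Without R5161 the difference turned to -0.333 percentage points (exact permutation p = 0.4). Without the 10 most abundant genes of each chromosome it was 0.72 percentage points, and the accessions of haplotype 1 all lay above those of haplotype 2 (exact permutation p = 0.1).

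**Figure D1:**
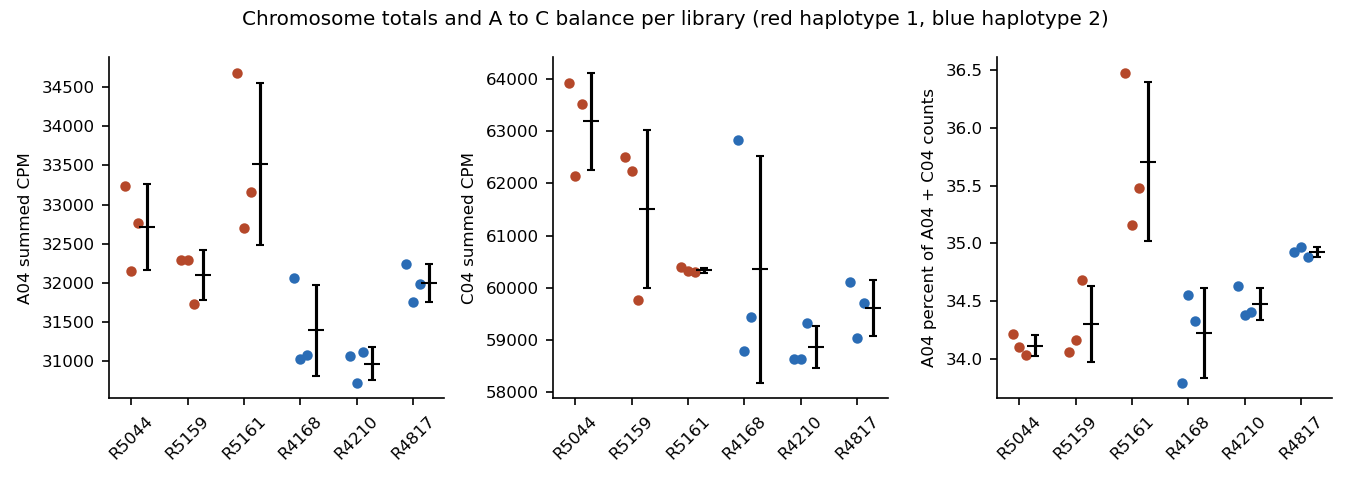
Summed CPM of A04 (left), summed CPM of C04 (middle) and the A04 percent of the A04 plus C04 counts (right) for each of the 18 libraries, with red points for haplotype 1, blue points for haplotype 2, and the mean and SD of the 3 libraries of an accession in black. The vertical axes do not start at 0. The 3 libraries of R5161 lie between 35.2% and 36.5%, above every other library.

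Expression was uneven along both chromosomes. The chromosomes were divided into windows of 100 gene numbers, and those with 15 or more tested genes were kept, 30 on A04 and 62 on C04. The summed level averaged over the 6 accessions had a median of 1031 CPM on A04 and 922 CPM on C04. The highest window of A04 began at gene 701 and held 2356 ± 151 CPM in haplotype 1 and 2171 ± 228 CPM in haplotype 2 (SD, n = 3 each). The most abundant gene of the chromosome, BnaA04T0072700ZS, made up 46.1% of it. The lowest began at gene 1501 and held 413 ± 91.5 CPM in haplotype 1 and 370 ± 35.1 CPM in haplotype 2. On C04 the means ran from 129 CPM in the window from gene 2401 to 1967 CPM in that from gene 5001. The window from gene 5001 holds the most abundant C04 gene, BnaC04T0504700ZS. BnaA04T0072700ZS averaged 1020 ± 121 CPM in haplotype 1 and 1060 ± 103 CPM in haplotype 2. BnaC04T0504700ZS averaged 966 ± 120 CPM in haplotype 1 and 785 ± 22.6 CPM in haplotype 2 (SD, n = 3 accessions each). Neither gene passed the accession-level test described next (adjusted p of 0.997 and 0.193, edgeR).

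**Figure D2:**
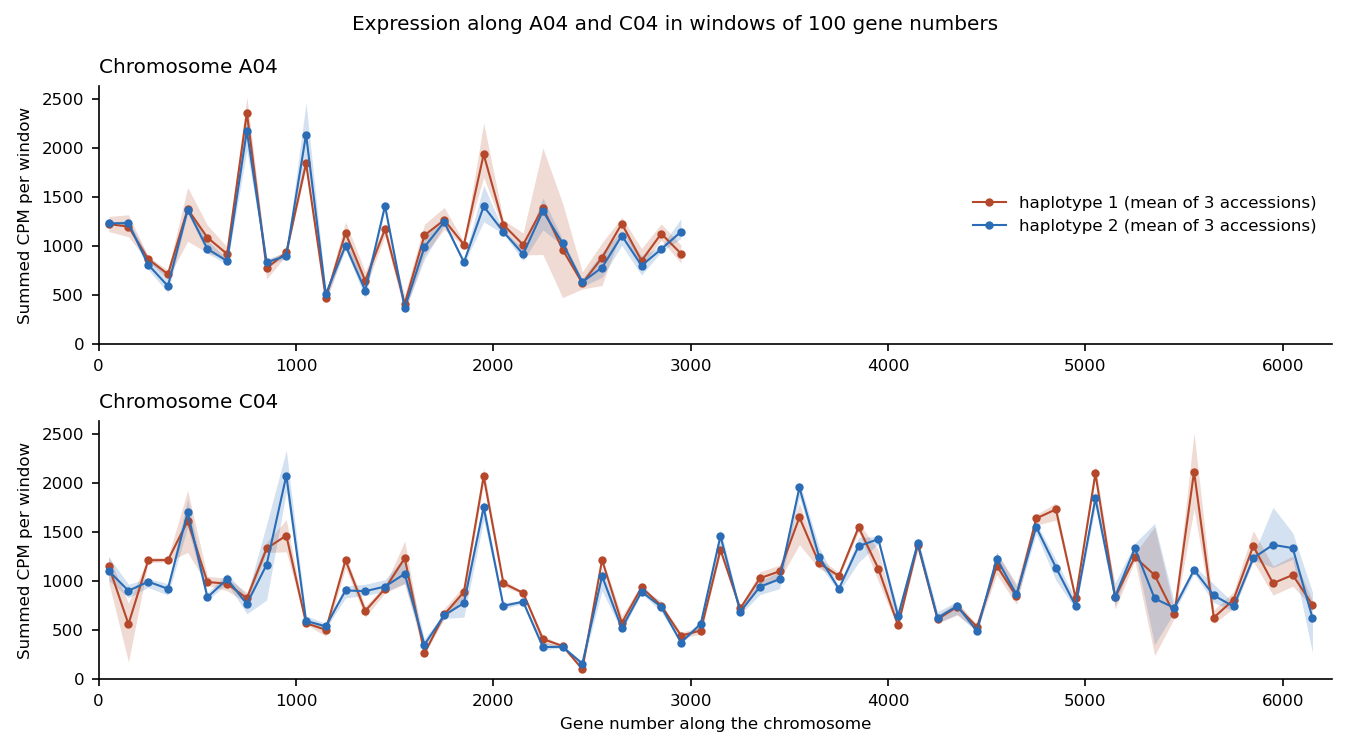
Summed CPM in windows of 100 gene numbers along A04 (top) and C04 (bottom), as means of the 3 haplotype 1 accessions (red) and the 3 haplotype 2 accessions (blue), with shading from the lowest to the highest accession. The red shading is widest on A04 in the window from gene 2201, where the accessions of haplotype 1 range from 914 to 1997 CPM, and on C04 in that from gene 5301, where they range from 240 to 1550 CPM.

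A pair of tests asked which genes differed between the haplotypes. The accession-level test summed the libraries of each accession and set 3 sums against 3 by quasi-likelihood in edgeR, so that the accession was the replicate. A fold change is that of haplotype 1 over haplotype 2, in log2. Among 1752 tested genes of A04, 120 were higher and 121 lower in haplotype 1 at a Benjamini-Hochberg adjusted p under 0.05. Among 3367 tested genes of C04, 215 were higher and 292 lower. Calls made up 13.8% of the tested A04 genes and 15.1% of those of C04, against 13.7% of all tested genes of the table, so that neither share is a result about these chromosomes. The background in single directions was 6.13% higher and 7.57% lower. The median log2 fold change was 0.0092 on A04, -0.04 on C04 and -0.03 over all tested genes. Called genes that were lower differed more, with a median of -2.42 on A04 and -2.69 on C04, than called genes that were higher, with medians of 1.25 and 1.34, and over all genes these medians were -2.62 and 1.26. The number of calls fell most without R4210, when 1 gene was higher and 6 lower on A04, and 7 higher and 18 lower on C04. Without any 1 of the other 5 accessions between 20 and 54 genes were higher and between 33 and 73 lower on A04, and between 44 and 132 higher and between 96 and 191 lower on C04.

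The other test contrasted the means of the 3 accession coefficients of either haplotype against the variation among libraries within accessions, and speaks of these 6 accessions only. It called 554 genes higher and 591 lower of 1776 on A04, and 1006 higher and 1168 lower of 3420 on C04, where 62.5% of all tested genes were called, 29.5% higher and 33% lower. A call here does not separate a haplotype from the accessions that carry it. Calls for which the 3 accession means of one haplotype all lay above the other 3 numbered 342 higher and 369 lower on A04, and 698 higher and 807 lower on C04, with a background of 40.3%, 18.7% higher and 21.6% lower. Among the 6 accessions, 1416 A04 genes and 2481 C04 genes differed (F test in edgeR, adjusted p under 0.05), or 79.7% and 72.5% of those tested, against a background of 73.2%.

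Most windows had medians near 0 between the haplotypes. The median log2 fold change of a window, less the median over all chromosomes, stayed within 0.25 of 0 in 22 of 30 windows on A04 and 42 of 62 on C04. It was at least 0.5 from 0 in 2 windows of A04 and 6 of C04, against 14.5% of the 970 windows of all chromosomes. On A04 these began at gene 2301 (-0.85) and gene 2901 (-0.51). On C04 they began at genes 101 (-1.95), 1701 (-0.52), 2201 (0.87), 4901 (-0.59), 5501 (0.53) and 6101 (1.35). The A04 window from gene 2301 was split within haplotype 1. Its sums were 475, 980 and 1436 CPM in R5044, R5159 and R5161, against 1017, 1067 and 1005 CPM in R4168, R4210 and R4817. Window sums often went another way than window medians: that of the window from gene 4901 was 821 ± 9.74 CPM in haplotype 1, against 745 ± 58 CPM in haplotype 2, although its median gene was lower in haplotype 1. Its most abundant gene held 31% of that sum, and without it the sums were 479 CPM in haplotype 1 and 602 CPM in haplotype 2.

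Sums that did not overlap between the haplotypes were found in 9 windows of A04, 6 of them higher in haplotype 1, and in 25 windows of C04, 14 of them higher, against 43.8% of all windows. The C04 window from gene 5501 showed the highest ratio of haplotype 1 to haplotype 2. It summed to 2509, 1733 and 2094 CPM in R5044, R5159 and R5161, against 1072, 1152 and 1112 CPM in R4168, R4210 and R4817. All haplotype 1 accessions lay above all of haplotype 2, but the window was chosen for its ratio, so this is a description. Gene 5516 alone had 706 CPM in haplotype 1 and 129 CPM in haplotype 2. Without it the sums were still 1406 CPM in haplotype 1, against 983 CPM in haplotype 2.

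The largest window shifts were those of single accessions. The difference of an accession from the median of the other 5, taken on log2(CPM + 0.1), on which low genes change less than in fold, had window medians between -3.16 and 1.25 on C04 and between -0.63 and 0.56 on A04. R5161 had a median of -3.16 in the C04 window from gene 101 and of -2.33 in that from gene 5301. R4210 had a median of -2.02 in the C04 window from gene 6101 and of -0.93 in that from gene 5301. R4817 had a median of -1.72 in the window from gene 5301, where the other 3 accessions were above 0, with 1.16 in R5044, 1.25 in R5159 and 1.00 in R4168. Smaller drops of at least 0.5 were those of R5161 in the A04 window from gene 2901 (-0.51) and of R4210 and R4817 in the C04 window from gene 2201 (-0.53 and -0.55). R5159 also dropped in the A04 windows from genes 2201 (-0.55) and 2301 (-0.55) and in the C04 window from gene 2601 (-0.60). R5044 dropped in the A04 window from gene 2301 (-0.63). No other of the 30 windows of A04 and 62 of C04 was lower by that much in any accession. Over all chromosomes, 4.95% of windows were lower by at least 0.5 in R5161, 4.43% in R4210 and 1.96% in R4817. This share is not given here for R5044 and R5159.

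**Figure D3:**
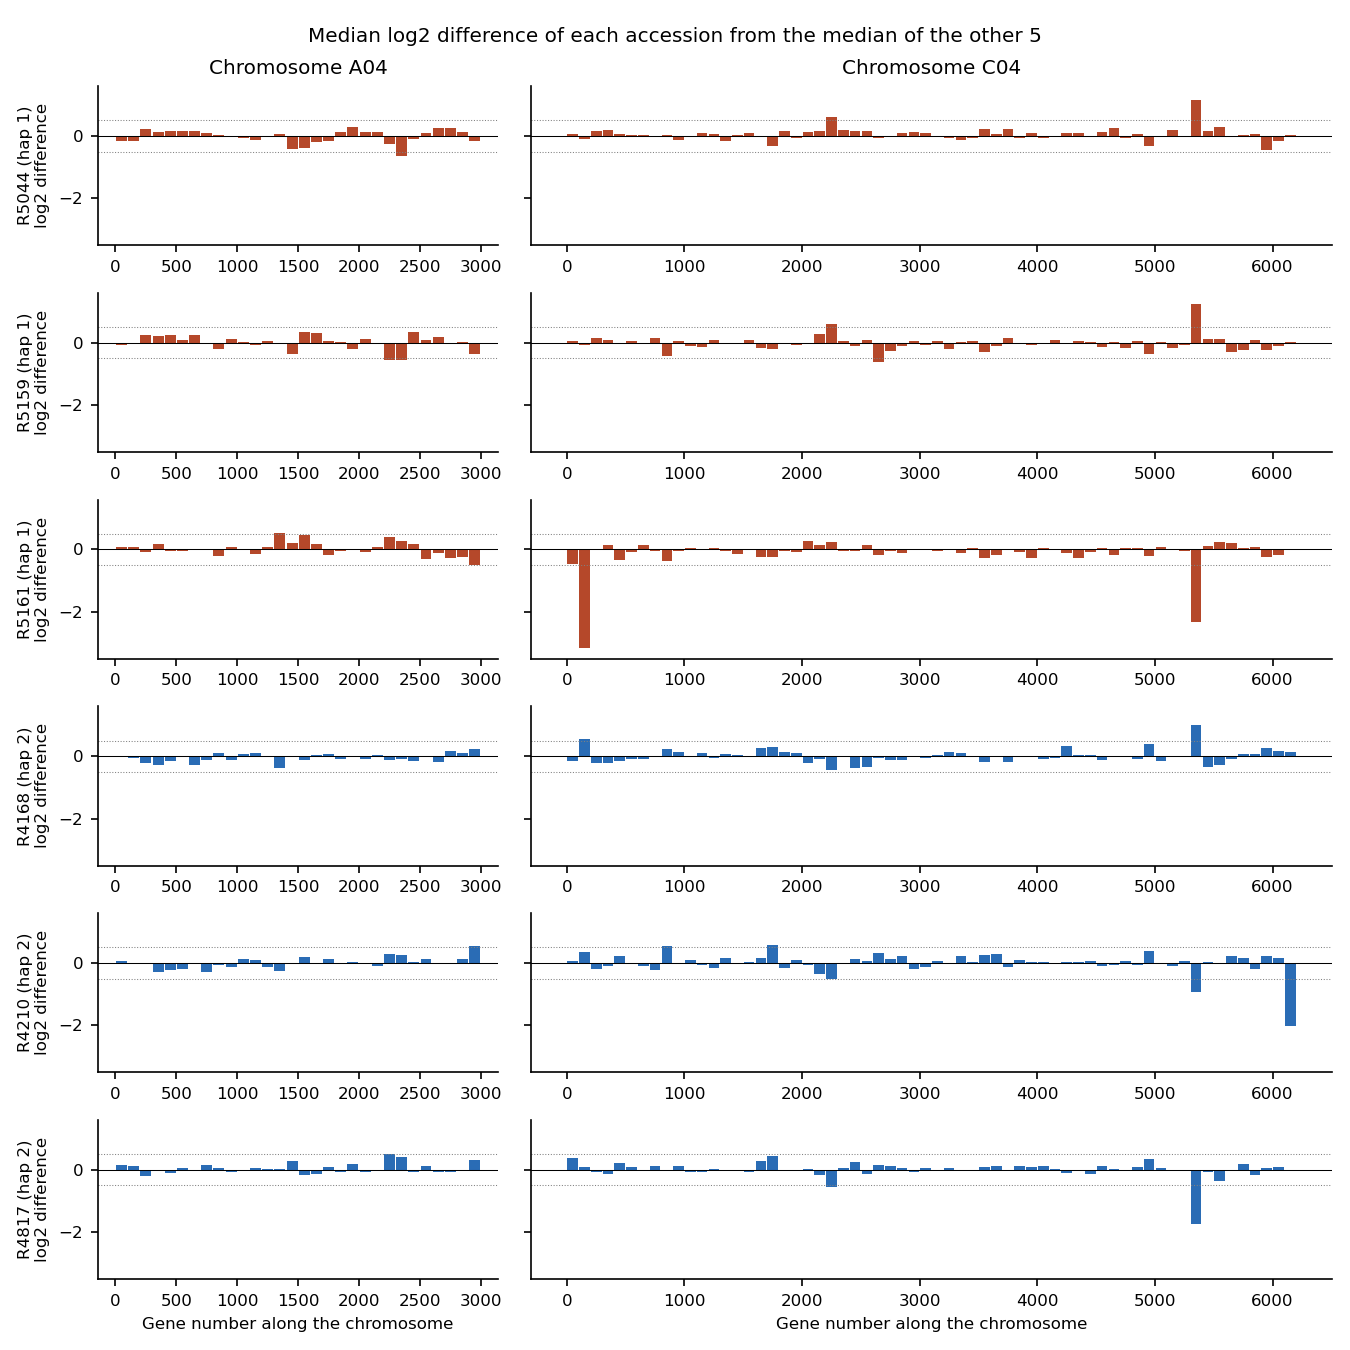
Median log2 difference of each accession (1 row each, haplotype 1 in red above haplotype 2 in blue) from the median of the other 5, in windows of 100 gene numbers along A04 (left) and C04 (right), with dotted lines at 0.5 and -0.5. The longest bars are those of R5161 at the C04 windows from genes 101 and 5301 and that of R4210 at the last C04 window.

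Stretches that set an accession apart were then delimited by a rule that was set after these windows were seen: at least 4 consecutive windows, each 10 gene numbers long and together holding 15 or more tested genes, whose medians were at least 1 log2 unit from the median of the other 5 accessions. It found 6 low stretches on C04 and 0 on A04, out of 94 over all chromosomes and accessions, and 4 higher ones on C04 and 1 on A04, out of 67. A stretch was chosen by these values, so its sums and counts are a description and not a test.

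Near the start of C04, genes 61 to 180 were low in R5161 alone. The 133 gene models there summed to 81.3, 80.5 and 82.8 CPM in the libraries of R5161, against 824, 823 and 838 CPM in R5044, 814, 821 and 731 CPM in R5159, 1053, 913 and 919 CPM in R4168, 868, 943 and 928 CPM in R4210, and 893, 885 and 902 CPM in R4817. Every library of R5161 lay far below every other library. The other 5 accessions averaged between 789 and 962 CPM, and R5044 and R5159 lay below all accessions of haplotype 2. R5161 stood at 0.093 times the mean of the other 5. Of the 89 tested genes, 74 were lower in R5161 than the mean of the other 5 and 1 was higher (edgeR contrast, adjusted p under 0.05), where 17.8% of all tested genes were lower. Gene 81, the most abundant of the stretch, had 0.097 CPM in R5161, against 79.1 CPM in R5044, 73.2 CPM in R5159, 54.4 CPM in R4168, 58.2 CPM in R4210 and 88.8 CPM in R4817.

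Genes 2501 to 2540 of C04 were nearly without counts in R4168. Its libraries summed to 3.38, 2.63 and 1.64 CPM, against 241, 267 and 255 CPM in R5044, 240, 261 and 251 CPM in R5159, 197, 229 and 198 CPM in R5161, 297, 298 and 259 CPM in R4210, and 288, 240 and 276 CPM in R4817. R4168 stood at 0.0101 times the mean of the other 5, the lowest ratio among the 6 low stretches. Of 17 tested genes, 15 were lower in R4168 and 0 higher, where 13.4% of all tested genes were lower. Gene 2533 held 45.4% of the sum, with 0.021 CPM in R4168, against 113 CPM in R5044, 115 CPM in R5159, 92.8 CPM in R5161, 126 CPM in R4210 and 129 CPM in R4817.

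The end of C04 was almost without expression in R4210. Genes 6131 to 6183, the last of the chromosome, summed to 12.1, 10.8 and 11.1 CPM in its libraries, against 537, 611 and 567 CPM in R5044, 589, 558 and 585 CPM in R5159, 472, 521 and 523 CPM in R5161, 727, 570 and 609 CPM in R4168, and 449, 367 and 415 CPM in R4817. R4210 stood at 0.021 times the mean of the other 5. Of 32 tested genes 28 were lower in R4210 and 0 higher, where 19.7% of all tested genes were lower. Gene 6141 held 19.6% of the sum, with 7.77 CPM in R4210, against 110 CPM in R5044, 107 CPM in R5159, 111 CPM in R5161, 119 CPM in R4168 and 75.9 CPM in R4817.

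Genes 5301 to 5370 of C04, delimited as higher in R5044, split the accessions across the haplotypes. They summed to 194, 251 and 238 CPM in the libraries of R5161, to 305, 390 and 326 CPM in R4210, and to 376, 304 and 332 CPM in R4817, against 1185, 1218 and 1241 CPM in R5044, 1333, 1421 and 1340 CPM in R5159, and 1287, 1403 and 1345 CPM in R4168. No library of R5161, R4210 or R4817 reached the lowest library of the other 3 accessions. Gene 5329 alone held 48.1% of the sum, with 87.6 CPM in R5161, 169 CPM in R4210 and 160 CPM in R4817, against 554 CPM in R5044, 645 CPM in R5159 and 706 CPM in R4168. In the contrasts of 1 accession with the mean of the other 5, 21 of 34 tested genes were lower in R5161, 16 in R4210 and 13 in R4817, where 13.2% of all tested genes were lower in R4817.

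Genes 5351 to 5400 were delimited as low in R5161 and in R4817. In the part that lies beyond the previous stretch, genes 5371 to 5400, the sums were 12.5 ± 2.74 CPM in R5161 and 12.3 ± 1.56 CPM in R4817, against 173 ± 2.48 CPM in R5044, 186 ± 3.04 CPM in R5159, 239 ± 11.7 CPM in R4168 and 189 ± 7.06 CPM in R4210 (SD, n = 3 libraries each). R4210, which was low in the previous stretch, lay among the high accessions here.

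The last of the low stretches, C04 genes 1741 to 1780 in R5159, was small in its sums. They were 163 ± 7.95, 178 ± 5.71 and 190 ± 7.05 CPM in R5044, R5159 and R5161, against 239 ± 7.48, 293 ± 42.4 and 224 ± 31.8 CPM in R4168, R4210 and R4817 (SD, n = 3 libraries each). The accession means of haplotype 1 all lay below those of haplotype 2 (177 ± 13.5 against 252 ± 36.1 CPM, SD, n = 3 accessions each). Genes 1741 to 1780 were also delimited as higher in R4210, and genes 1731 to 1770 as higher in R4817. The order of the haplotypes therefore follows in part from the choice of the stretch. The accession-level test called 11 of its 22 tested genes lower in haplotype 1 and 0 higher, where 7.57% of all tested genes were lower and 6.13% higher. In the contrast of R5159 alone 7 of 23 were lower, where 16.7% of all tested genes were. These counts describe a stretch chosen by its values and are not a test of the haplotypes.

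Some A stretches were higher in some of the accessions with a low C04 stretch. Under the rule above, the only higher stretch of A04 was genes 1931 to 1970 in R4817, which is not described further. On A05 that rule gave genes 131 to 180 in R5161 and genes 4651 to 4700 in R4210. A looser rule was then used, with stretches taken from windows of 50 gene numbers with a median at least 0.5 above that of the other 5 accessions. This looser rule gave 299 stretches over all chromosomes and accessions, 47 of them in R5161 and 77 in R4210, with 9 on A04. The 3 that follow were picked from these after their values were seen, for their place on A04 or A05, and the files do not say which C04 genes are their counterparts. Each was chosen as high in R5161 or R4210, which were low in the C04 stretch set beside it. The A shares below follow in part from that choice, and the sums of both depend on the bounds. No A stretch was set beside the low C04 stretches of R4168 and R5159. In R4168 the rule for windows of 50 gene numbers gave 0 stretches on A04 and 1 on A05. In R5159 it gave 3 on A04 and 2 on A05. The 3 pairs below therefore do not show that A expression is higher wherever C04 expression is low. Whether A expression makes up for C expression was not tested.

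A05 genes 51 to 200 summed to 1930 ± 55.5 CPM in R5161, against 971 ± 36.9 CPM in R5044, 962 ± 30.3 CPM in R5159, 1107 ± 97.9 CPM in R4168, 1041 ± 16.5 CPM in R4210 and 1090 ± 32.6 CPM in R4817 (SD, n = 3 libraries each). Of the 87 tested genes 63 were higher in R5161 than the mean of the other 5 and 6 lower, against a background of 24.6% higher. Set beside C04 genes 61 to 180, the A05 stretch held 96% of the sum of both in R5161, against 54%, 55%, 53.5%, 53.3% and 55% in R5044, R5159, R4168, R4210 and R4817. The sum of both was 2012 CPM in R5161, within the range of 1751 to 2068 CPM of the other 5 accessions.

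A04 genes 2201 to 2250 summed to 1735 ± 227 CPM in R5161, 1133 ± 80.4 CPM in R4210 and 1216 ± 195 CPM in R4817, against 987 ± 9.15 CPM in R5044, 678 ± 31.8 CPM in R5159 and 835 ± 34.3 CPM in R4168 (SD, n = 3 libraries each). R5161 and R4817 met the looser rule for higher stretches there. R4210 did not, with a median difference of 0.461, and stood at 1.04 times the mean of the other 5. The libraries of R4817 spread from 1021 to 1410 CPM, and its lowest came close to the 996 CPM of the highest R5044 library. R5161 had 16 higher and 1 lower of 33 tested genes, R4210 had 17 higher and 2 lower, and R4817 had 21 higher and 1 lower, where 24.6%, 27.7% and 27.1% of all tested genes were higher in these accessions. Set beside C04 genes 5301 to 5370, the A04 stretch held 88.4% of the sum of both in R5161, 76.9% in R4210 and 78.3% in R4817, against 44.8% in R5044, 33.2% in R5159 and 38.3% in R4168. The sum of both was 1963 CPM in R5161, 1473 CPM in R4210 and 1553 CPM in R4817, against 2202, 2042 and 2180 CPM in R5044, R5159 and R4168, so that the sums of R4210 and R4817 stayed well below the others.

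A04 genes 2951 to 3000 summed to 662, 714 and 746 CPM in the libraries of R4210, against 378 ± 34.6 CPM in R5044, 382 ± 49.8 CPM in R5159, 327 ± 27.1 CPM in R5161, 466 ± 39.9 CPM in R4168 and 433 ± 65 CPM in R4817 (SD, n = 3 libraries each). No library of another accession exceeded 512 CPM. Of the 27 tested genes, 16 were higher in R4210 and 2 lower, against a background of 27.7% higher. The accession means of haplotype 1 all lay below those of haplotype 2, as the values above show, and the accession-level test called 4 of 27 genes lower and 0 higher. Over all tested genes 7.57% were lower and 6.13% higher in that test, and this stretch was picked after its values were seen. Set beside C04 genes 6131 to 6183, the A04 stretch held 98.4% of the sum of both in R4210, against 39.8%, 39.8%, 39.3%, 42.3% and 51.4% in R5044, R5159, R5161, R4168 and R4817. The sum of both was 719 CPM in R4210, below the 832 to 1101 CPM of the other 5 accessions.

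**Figure D4:**
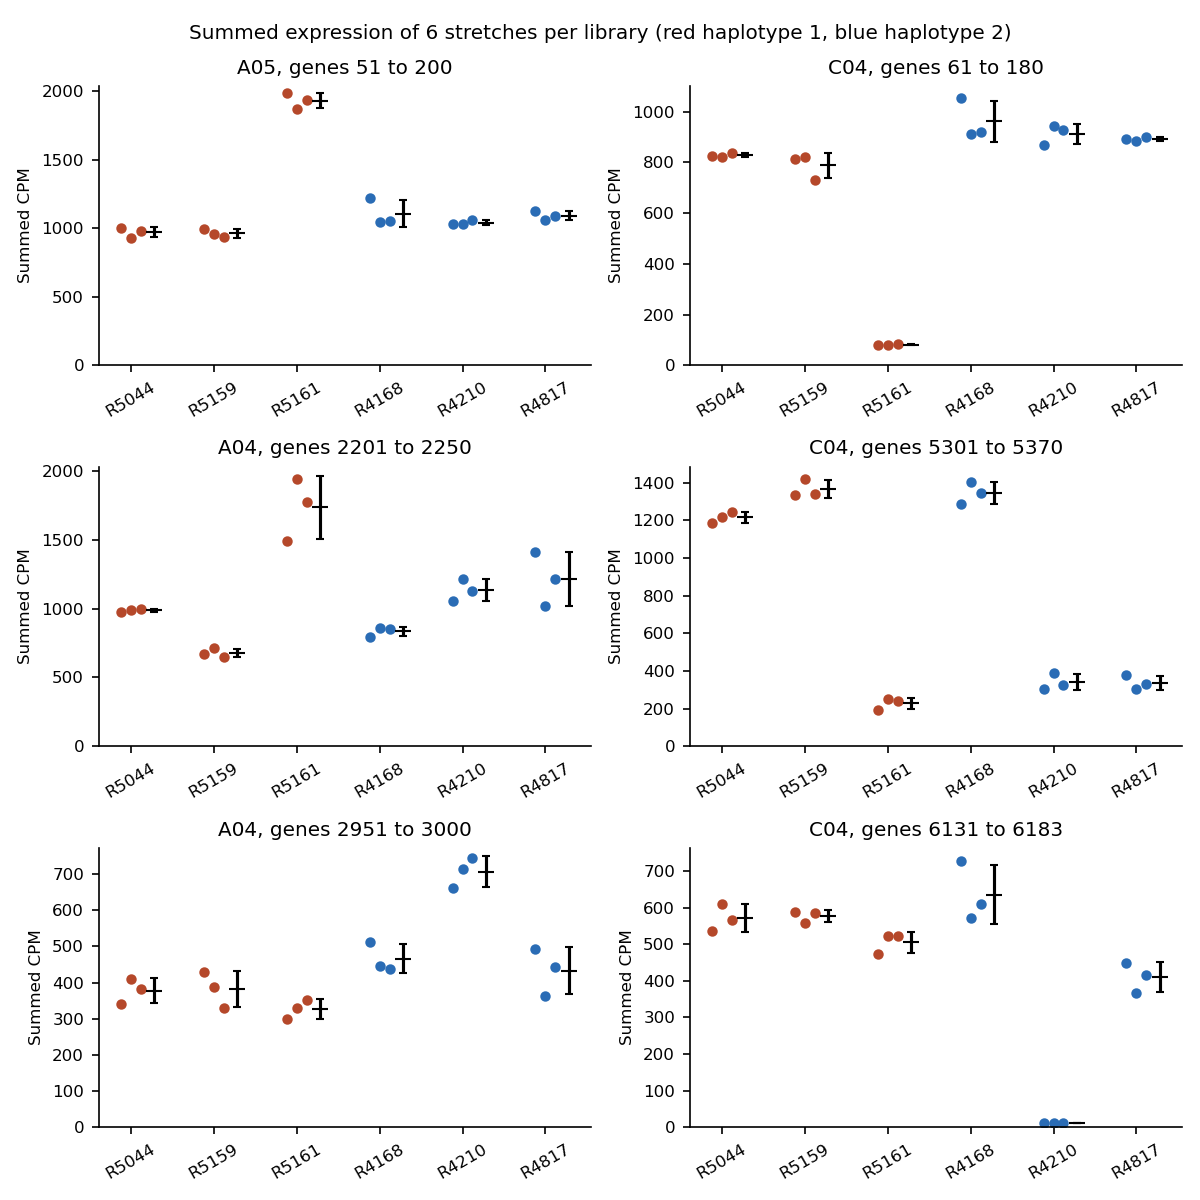
Summed CPM of 6 stretches in each library (points, red for haplotype 1 and blue for haplotype 2), with the mean and SD of the 3 libraries of an accession in black, and with each A stretch left of the C stretch it was set beside. C04 genes 61 to 180 are low in R5161, genes 5301 to 5370 in R5161, R4210 and R4817, and genes 6131 to 6183 in R4210, and R5161 or R4210 is highest in the A stretch to their left.

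These stretches entered the haplotype comparison. The window from gene 101 of C04 had a median log2 fold change of -1.95, and its sums were 774, 732 and 174 CPM in R5044, R5159 and R5161, against 966, 904 and 828 CPM in R4168, R4210 and R4817. The haplotypes did not overlap there, although R5161 lay much further below than R5044 and R5159 did. That window was chosen for its shift, so this is a description. The last C04 window had a median of 1.35, and its sums were 800, 737 and 733 CPM in R5044, R5159 and R5161, against 886, 268 and 716 CPM in R4168, R4210 and R4817. With the accession as the replicate, C04 genes 61 to 180 gave 0 higher and 7 lower calls of 85 tested genes, and genes 6131 to 6183 gave 0 of 30 in either direction. The test of accession means called 4 higher and 68 lower of 89 genes in the stretch from gene 61, and 23 higher and 1 lower of 32 in that from gene 6131. Without all the stretches above, the accession-level calls were 120 higher and 117 lower on A04 and 215 higher and 274 lower on C04.

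The C04 window from gene 2201, with a median of 0.87, was outside these stretches. Its sums were 446, 353 and 424 CPM in R5044, R5159 and R5161, against 375, 298 and 305 CPM in R4168, R4210 and R4817, so that the groups overlapped (exact permutation p = 0.2). The accession-level test called 13 genes higher and 5 lower of 45 tested there, against the background of 6.13% higher and 7.57% lower. This window was chosen for its shift, so its counts are a description.

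Genes expressed in one haplotype and silent in the other were few. The rule asked for at least 1 CPM in all 9 libraries of one haplotype and at most 3 counts over the 9 libraries of the other. It found 6 genes on C04 and 0 on A04 for haplotype 1, against 0.028% of all gene models of the table. For haplotype 2 it found 4 on C04 and 1 on A04, against 0.103% of all gene models. The haplotype 1 genes are C04 numbers 2128, 2129, 2132, 2267, 2427 and 3976, and the haplotype 2 genes are A04 number 1513 and C04 numbers 3389, 3390, 3931 and 4439. Counts in the silent haplotype were 0 for 4 of the 6 and for 2 of the 5.

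BnaC04T0213200ZS (number 2132) and BnaC04T0212900ZS (number 2129) had the highest called fold changes of both chromosomes and the highest levels among the haplotype 1 genes. The libraries of BnaC04T0213200ZS held 15.6, 17.2 and 16.7 CPM in R5044, 18.3, 20.1 and 10.6 CPM in R5159, and 19.8, 21.9 and 17 CPM in R5161, against 0 counts in all 9 libraries of haplotype 2. It was at least 1370-fold higher in haplotype 1, with the floor set at 3 counts over the haplotype (mean 17.5 ± 1.83 CPM, SD, n = 3 accessions, adjusted p = 0.00836, edgeR). BnaC04T0212900ZS averaged 8.47 ± 1.79 CPM in haplotype 1 (SD, n = 3 accessions), against 0 counts in haplotype 2, and was at least 667-fold higher (adjusted p = 0.00981, edgeR). Both stayed past the threshold in each alternative analysis that tested them. The highest adjusted p there (edgeR, DESeq2 or limma-voom) was 0.0474 for BnaC04T0213200ZS and 0.0477 for BnaC04T0212900ZS. Both genes were chosen by these same values, so their p-values are a description and not an independent test.

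Numbers 2128, 2129 and 2132 lie close together on C04, and the genes between them did not share the pattern. Number 2130 had 6.82, 4.86 and 5.37 CPM in R5044, R5159 and R5161, against 6.64, 6.64 and 10.2 CPM in R4168, R4210 and R4817. Number 2131 had 8 counts in all in haplotype 1 and 3 in haplotype 2. At numbers 3389 to 3392 neighbours went opposite ways: 3389 and 3390 had 0 and 3 counts in haplotype 1, against 978 and 1198 counts in haplotype 2, whereas 3391 and 3392 had 205 and 478 counts in haplotype 1, against 0 and 1 in haplotype 2. Numbers 3391 and 3392 fell under 1 CPM in some haplotype 1 accessions and so missed the rule. Number 3932, beside number 3931, had 3 counts in haplotype 1, against 52, 65.2 and 1.67 CPM in R4168, R4210 and R4817, and number 2269, beyond number 2267, had 24.7, 21.1 and 25.3 CPM in R5044, R5159 and R5161, against 0.553, 0.82 and 0.15 CPM in R4168, R4210 and R4817. These neighbours were picked after their values were seen.

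Of the haplotype 2 genes, BnaC04T0443900ZS (number 4439) and BnaC04T0339000ZS (number 3390) were the most abundant. BnaC04T0443900ZS had 3 counts over haplotype 1, against 6.66, 22.6 and 13.8 CPM in R4168, R4210 and R4817 (log2 fold change -10.3, SE 0.978, adjusted p = 0.0107, edgeR). BnaC04T0339000ZS also had 3 counts over haplotype 1, against 2.40, 4.53 and 9.14 CPM in the haplotype 2 accessions (log2 fold change -8.87, SE 1.03, adjusted p = 0.0136, edgeR). The ratio of haplotype 2 to haplotype 1 was 1410 for BnaC04T0443900ZS, with a 95% counting interval of 481 to 6820, and 505 for BnaC04T0339000ZS, with an interval of 173 to 2450. The call of BnaC04T0443900ZS held in 10 of 10 alternative analyses, and that of BnaC04T0339000ZS was lost in 1 of 10. The highest adjusted p there (edgeR, DESeq2 or limma-voom) was 0.0494 and 0.0568. Both genes were chosen by these same values, so their p-values are a description and not an independent test.

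**Figure D5:**
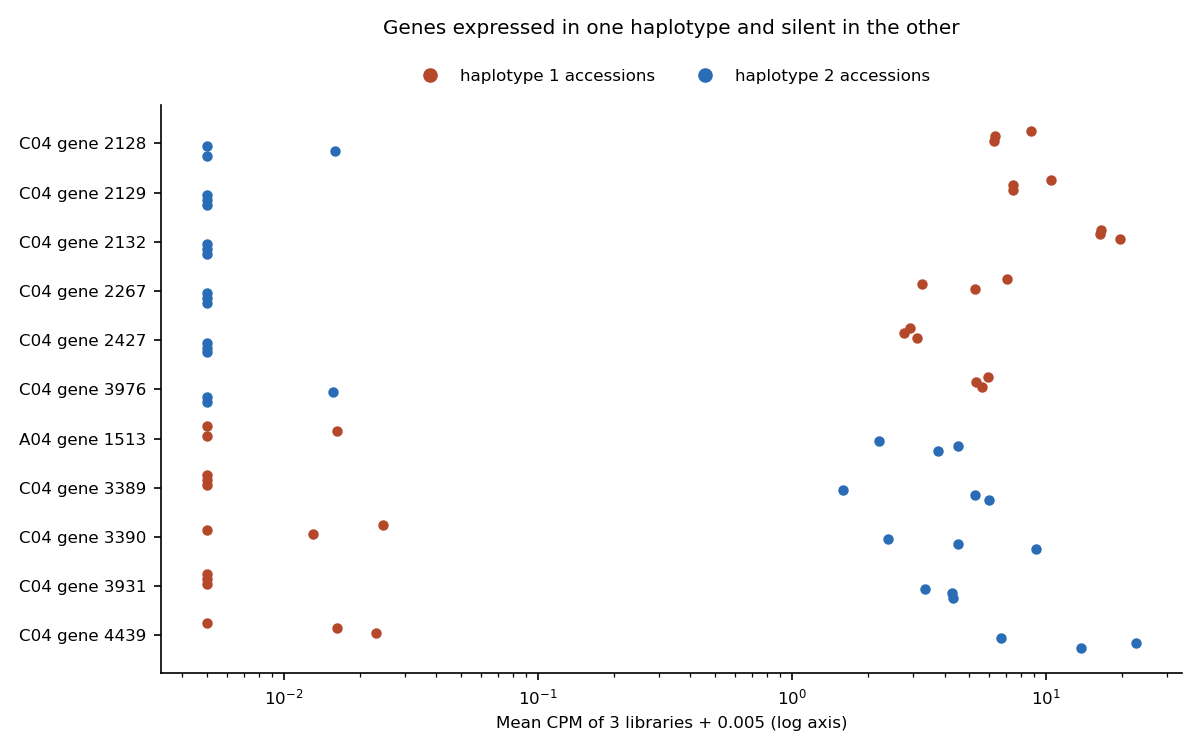
Mean CPM of the 3 libraries of each accession, with a small constant added for the log axis, for the 11 genes expressed in one haplotype and silent in the other (haplotype 1 accessions red, haplotype 2 accessions blue). In the 6 upper genes the red points lie between 2.76 and 19.6 CPM and in the 5 lower genes the blue points lie between 1.59 and 22.6 CPM, while the other haplotype lies near 0.

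The lowest called fold changes were those of BnaC04T0351300ZS (number 3513) and BnaC04T0180100ZS (number 1801), and both varied widely within haplotype 2. BnaC04T0351300ZS had 0 counts in haplotype 1, against 1.48, 0.242 and 0.31 CPM in R4168, 12.6, 25.6 and 15.8 CPM in R4210, and 3.23, 8.84 and 5.46 CPM in R4817. It was at least 787-fold lower in haplotype 1 (0 CPM, against 8.17 ± 8.88 CPM in haplotype 2, SD, n = 3 accessions, adjusted p = 0.0479, edgeR). BnaC04T0180100ZS had 0 counts in haplotype 1, against 5.56 ± 4.65 CPM in haplotype 2 (SD, n = 3 accessions), was at least 536-fold lower, and had 0 counts in 1 library of R4168 and in 1 of R4817 (adjusted p = 0.0488, edgeR). Either call was lost in 6 of 9 alternative analyses, and both genes were chosen by their fold changes.

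With the rule applied to single accessions, at least 1 CPM in all 3 libraries or at most 1 count over them, 23 gene models of A04 (0.719%) and 67 of C04 (1.02%) were expressed in some accessions and silent in all the others, against 1.20% of all gene models. Another 961 of A04 and 1791 of C04 were expressed in all 6 accessions. Silence in R5161 alone was found in 13 genes of C04 (0.198%), against 0.0643% of all gene models, and 11 of the 13 lie in genes 61 to 180. Silence in R4210 alone was found in 9 genes of C04 (0.137%), near the 0.129% of all gene models, and 5 of the 9 lie in genes 6131 to 6183. Silence in R4168 alone was found in 4 genes of C04 (0.061%), against 0.137% of all gene models, and 3 of the 4 lie in genes 2501 to 2540. In R5159 alone 6 genes of C04 were silent (0.0914%), against 0.124% of all gene models. These 6 genes lie outside the stretches described above, with 0 in the low C04 stretch of R5159. For R5044 alone and for R4817 alone the number on C04 was 0. On A04 at most 2 genes were silent in any single accession alone.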

How the data were processed

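Shoot apex poly(A) RNA of 6 accessions, 3 libraries each, was sequenced. The deposited values are whole-number counts of each gene model in 1 table, without normalization. The submitters' processing notes list HISAT2 2.2.1 and featureCounts. Sources used here give no build, annotation or strand setting. Columns were matched to samples by name, and none of the identifiers matched the RefSeq names of the Da-Ae assembly (0 of 9764).

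CPM was computed from a count and the library total. Tests ran over the whole table in R 4.3.3 with edgeR 4.0.16 (TMM, filterByExpr, quasi-likelihood, Benjamini-Hochberg over all tested genes). Summaries used Python 3.11.15 with pandas 2.3.3 and scipy 1.17.1. Members, lists and tests were chosen with earlier results of these data known. The rule for named genes takes the 2 highest and 2 lowest called fold changes with a mean of at least 1 CPM, the 2 most abundant genes expressed in one haplotype only for each haplotype, and the most abundant gene of each chromosome.

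The tests were tried on simulated data first. Where simulated accessions varied, the test of accession means also called genes without a haplotype effect. Library pairs were checked for duplicates: 0 were identical, and chi-square per degree of freedom was at least 5.35 between libraries of an accession. Intervals and floors cover counting error only. Alternatives were DESeq2, limma-voom, other filters, normalizations and thresholds, and leaving out each accession or library.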

Additional observations from a re-analysis of the deposited data

How the results depend on the processing

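Of 356 alternative values, 272 were rated as unchanged, by rules that differed between results. Counts and the ratios of stretches had to move little. For the A04 share and the chromosome sums only the sign had to hold, whatever the size or p. A named gene had to keep its side of the threshold, and its sign only where it was called. The 272 are therefore no measure of how stable the sizes were. Accession-level calls higher and lower in haplotype 1 were 314 and 326 on A04 and 601 and 688 on C04 with DESeq2, and 237 and 232 on A04 and 447 and 493 on C04 with limma-voom and the accession as an estimated block. Without a filter on low counts the higher calls were 73 on A04 and 141 on C04. With 1 accession left out they ranged from 1 to 54 higher and 6 to 73 lower on A04, and from 7 to 132 higher and 18 to 191 lower on C04, with the lowest values without R4210. In the test of accession means, at least a 2-fold change left 248 higher and 385 lower calls on A04 and 465 and 745 on C04, and haplotypes that did not overlap left 342 and 369 on A04. The A04 share differed by -0.333 to 0.465 percentage points with 1 accession left out, negative without R5161. Without the 10 most abundant genes of each chromosome it differed by 0.72 percentage points (main value 0.167), with haplotypes that did not overlap (exact permutation p = 0.1), and the log2 difference of the C04 sums was 0.013.

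Genes expressed in haplotype 1 only numbered 6 to 15 with 1 accession left out. Those of haplotype 2 numbered 7 to 20, 11 at 0.5 CPM, 2 at 2 CPM, 2 with 0 counts and 10 with up to 10 counts in the silent haplotype. Windows shifted between haplotypes numbered 26 at 50 gene numbers, 1 at 200 and 4 at a shift of 0.75. Those shifted in single accessions, 23 in all, numbered 67, 4 and 8 under these settings, 12 with a pseudocount of 0.5 CPM, and 14 to 18 with 1 accession left out. Without its most abundant gene, the log2 ratio of R5161 to the mean of the other 5 was -3.31 for C04 genes 61 to 180, -1.76 for genes 5301 to 5370 and 1.05 for A04 genes 2201 to 2250. That of R4210 was -6.94 for C04 genes 6131 to 6183 and 0.70 for A04 genes 2951 to 3000, that of R4168 -5.77 for C04 genes 2501 to 2540, and that of R5159 -0.17 for C04 genes 1741 to 1780. Leaving out the most abundant gene of a stretch was chosen after the data were seen. The cause of these changes was not tested.

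Libraries with the same replicate number did not deviate together: correlations of deviations ran from -0.153 to 0.221 over 45 pairs. With the replicate number as a block, the test of accession means called 550 higher and 583 lower genes on A04 and 997 and 1149 on C04.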
